A study of Homo sapiens with 18 samples.

Results

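The genes described here are 10 members of the MAPK feedback and early response group: the transcription factors EGR1, EGR3, FOSL1 and ETV5, the phosphatases DUSP4 and DUSP6, the pathway inhibitors SPRY2, SPRY4 and SPRED1, and PHLDA1. They were taken by gene symbol from 2 deposited RNA-seq tables that together list 16410 genes. T47D cells list 9 of the 10, all but FOSL1, and MDA-MB-231 cells list 9, all but EGR3, so 8 genes are listed in both tables. T47D is an estrogen receptor positive and MDA-MB-231 an estrogen receptor negative human breast cancer line. Both carry a G0S2 gene that doxycycline switches on. Cells of each line were taken after 3 and after 15 days in doxycycline at 0.5 ug/ml and without it (day 0, the control), with 3 libraries in each of 6 groups and 18 libraries in all. The series' design text speaks of parental and Aza-resistant lines, which no sample label names; the groups used here follow the sample labels. The labels name neither the promoter of the G0S2 vector nor clones. Doxycycline-treated cells that lack the introduced gene were not analysed here. What G0S2 did can therefore not be told apart from what the drug or the vector did. No label names untreated cells at day 3 or day 15, so time in culture cannot be told apart from treatment either. The labels do not tie the 3 libraries of a group to separate cultures; p-values cover their spread only, which may be technical.

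In the MAPK cascade, growth factor receptors activate RAS, RAF, MEK and the kinase ERK. ERK acts on transcription factors that switch on early response genes within minutes to hours, and part of these genes encode brakes on the cascade: DUSP phosphatases remove the activating phosphates of MAP kinases, and Sprouty and SPRED proteins act on the steps between receptor and RAF. The transcripts are therefore widely used as a readout of ERK activity, which was not itself measured here.

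The induced gene was checked first. In T47D cells, the control libraries held 0.966, 0.343 and 0.442 CPM of G0S2 (counts scaled to library size), the day 3 libraries 883, 855 and 844 CPM, and the day 15 libraries 766, 993 and 736 CPM. In MDA-MB-231 cells, the control libraries held 25.6, 25.1 and 25.2 CPM, the day 3 libraries 1484, 1506 and 1430 CPM, and the day 15 libraries 1209, 1294 and 1103 CPM. All treated libraries were far above the controls of their line. Libraries held 40.1 to 51.0 M reads in T47D and 37.0 to 52.4 M in MDA-MB-231. All 8 luminal markers fixed for T47D were listed there, whereas ESR1, PGR and FOXA1 were not listed in MDA-MB-231; of the 6 mesenchymal markers, all were listed in MDA-MB-231 and only CD44 in T47D. Leukocyte markers (2 of 5 listed in each line) summed to at most 1.94 CPM in any library, fibroblast markers to 13.8 to 20.5 CPM, and endothelial markers to 8.52 to 10.4 CPM in MDA-MB-231, with none listed in T47D. One library, T47D day 15 replicate 2, stood apart from the other 2 of its group: its reads differed from theirs by a chi-square of 14.5 and 23.6 per degree of freedom, against at most 5.92 for any other pair within a group. Results that use the T47D day 15 libraries are therefore also given without it; in that setting 25.1% of all T47D genes were called at day 15 against control and 17.6% against day 3, against 11.2% and 5.58% with all libraries.

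Promoters of 6 of the 10 genes (EGR1, DUSP6, SPRY2, SPRY4, SPRED1 and PHLDA1) were matched by symbol in RefSeq sequences of build GRCh38.p14; EGR3, FOSL1, ETV5 and DUSP4 had no entry. The 250 bases before the start were searched on both strands for AP-1 (TGANTCA), CRE (TGACGTCA), ETS (CCGGAA), EGR (GCGGGGGCG) and CArG box motifs, and no match overlapped a match of another motif in the sequences shown. Shown are the promoter of EGR1, which rose in MDA-MB-231, that of PHLDA1, which fell in T47D, and that of DUSP6, a phosphatase transcript without a match. The capitals in EGR1 mark 2 CArG boxes, the element bound by serum response factor, with 95 and 73 bases between each and the start. The EGR1 window lies at chr5:138465229-138465478 on the plus strand. The capitals in PHLDA1 mark 1 ETS motif on the reverse strand, 83 bases before the start. The PHLDA1 window lies at chr12:76031777-76032026 on the minus strand. The DUSP6 window lies at chr12:89352502-89352751 on the minus strand. Each start is that of the RefSeq entry. The GENCODE 29 annotation places PHLDA1 at chr12:76025447-76033932 and DUSP6 at chr12:89347232-89353271, so these 2 windows lie inside the annotated genes. The windows of SPRY4 and SPRED1 do so as well.
EGR1 promoter: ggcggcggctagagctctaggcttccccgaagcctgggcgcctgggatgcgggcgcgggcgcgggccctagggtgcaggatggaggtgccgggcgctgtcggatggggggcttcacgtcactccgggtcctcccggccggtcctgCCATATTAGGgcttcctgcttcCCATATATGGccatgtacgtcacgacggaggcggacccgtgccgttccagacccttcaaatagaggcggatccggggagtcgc
PHLDA1 promoter: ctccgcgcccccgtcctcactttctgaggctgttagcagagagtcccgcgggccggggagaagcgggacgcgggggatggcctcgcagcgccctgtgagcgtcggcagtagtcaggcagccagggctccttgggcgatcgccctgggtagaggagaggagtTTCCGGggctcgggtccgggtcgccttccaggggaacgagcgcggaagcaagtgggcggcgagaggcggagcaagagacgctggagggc
DUSP6 promoter: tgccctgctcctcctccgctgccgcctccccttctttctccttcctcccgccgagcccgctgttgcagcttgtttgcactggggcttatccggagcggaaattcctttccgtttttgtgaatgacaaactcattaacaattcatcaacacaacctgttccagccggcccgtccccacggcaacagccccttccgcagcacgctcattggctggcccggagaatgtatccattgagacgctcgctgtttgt
Of 35116 promoters of the same length, a CArG box was found in 1.159%, the ETS motif in 14.53%, the EGR motif in 4.724%, AP-1 in 6.573% and CRE in 1.646%. Among the 6 matched genes, a CArG box was found in 1, the ETS motif in 2 (SPRY2 and PHLDA1), the EGR motif in 1 (SPRY2), and AP-1 and CRE in 0. SPRY2 had several promoter entries, and its ETS and EGR matches lay in the same entry. These are counts of genes, whereas the shares above are of promoters. A match describes these letters and does not show a bound site. In GENCODE 29 on GRCh38, FOSL1 spans chr11:65892049-65900573 on the minus strand, ETV5 chr3:186046308-186110318 on the minus strand, SPRY2 chr13:80335976-80340951 on the minus strand, SPRY4 chr5:142310427-142326455 on the minus strand and SPRED1 chr15:38252326-38357249 on the plus strand.

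**Figure D1:**
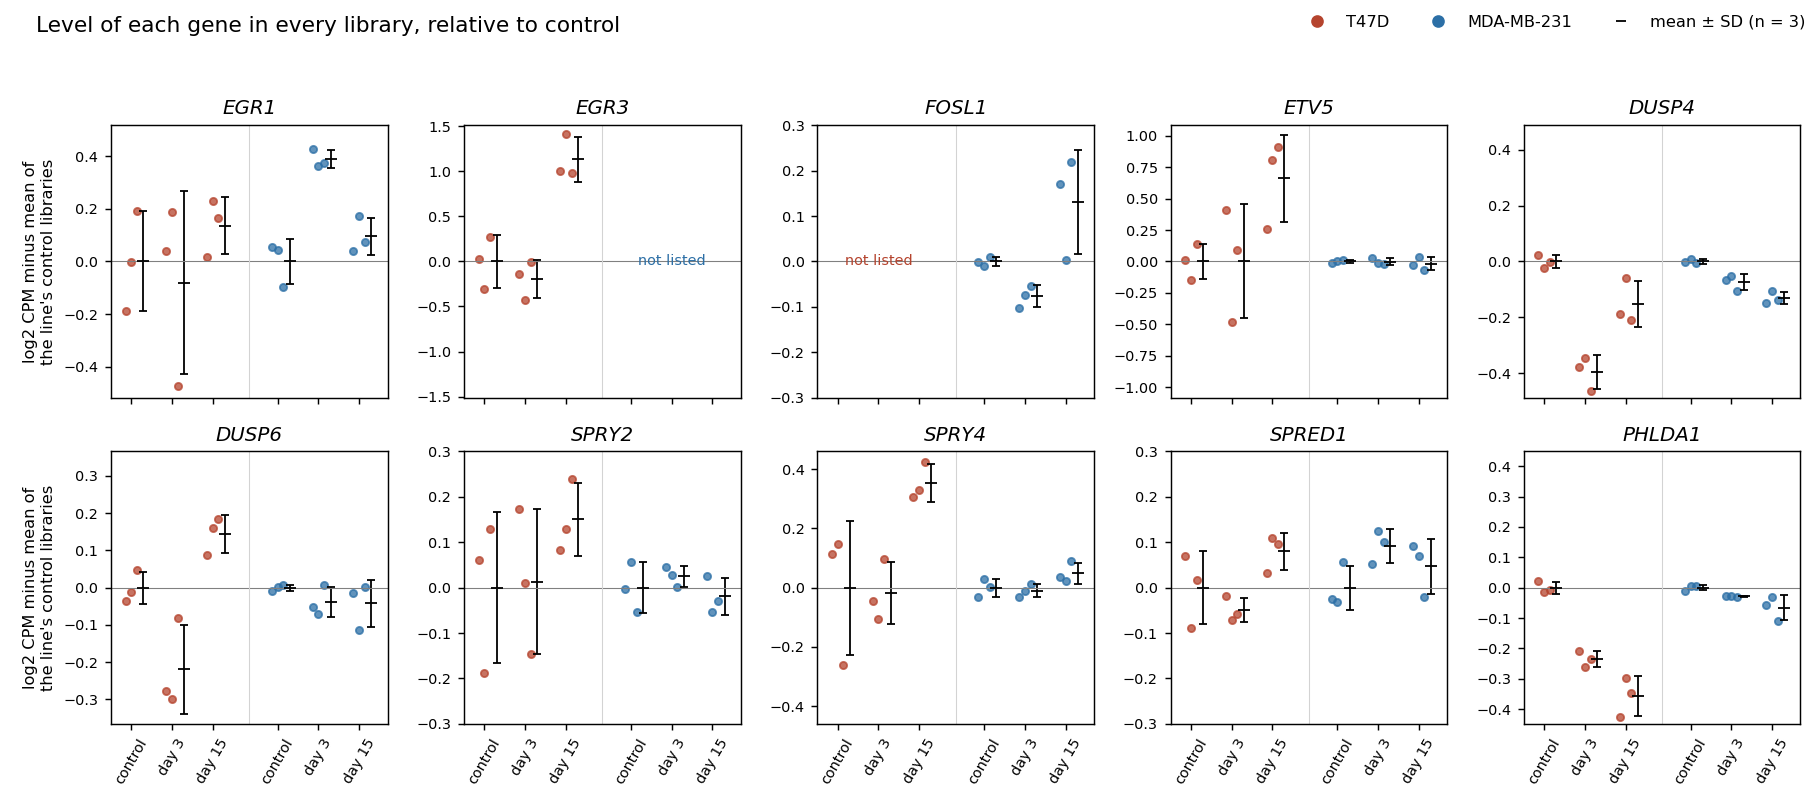
Level of each gene in every library, as log2 CPM minus the mean of the control libraries of the same line; points are libraries, T47D left and MDA-MB-231 right in each panel, and bars are the mean ± SD (n = 3). The vertical scale differs between panels: EGR3 stood higher in all 3 T47D day 15 libraries, and PHLDA1 and DUSP4 stood below control in all treated T47D libraries.

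The transcription factors come first. EGR1 and EGR3 are zinc-finger proteins made within minutes of ERK activation. In T47D cells, EGR3 was read at 0.876, 0.699 and 1.04 CPM in controls, 0.779, 0.641 and 0.857 CPM at day 3, and 1.73, 2.31 and 1.70 CPM at day 15, from 26 to 102 reads a library. All 3 day 15 libraries stood above all 6 others, while day 3 and control libraries overlapped. Groups that do not overlap were common: among all T47D genes they made up 21.9% at day 3 against control, 26.3% at day 15 against control and 22.4% at day 15 against day 3, and among all MDA-MB-231 genes 20.5%, 24.3% and 25.1% in the same order. These shares are for 2 groups at a time, and the share of genes with all 3 groups apart was not computed. In bulk RNA, fewer cells with a transcript and less of it per cell cannot be told apart. EGR3 rose at day 15 by 1.13 on the log2 scale against control (SE 0.204, adjusted p = 0.00225) and by 1.33 against day 3 (SE 0.204, adjusted p = 0.00107, both limma with Benjamini-Hochberg adjustment over all genes). Without T47D day 15 replicate 2, the highest of the 3, the rise was 0.99 against control (adjusted p = 0.00164) and 1.18 against day 3 (adjusted p = 0.000365). At day 3 the log2 difference from control was -0.19 (SE 0.204, adjusted p = 0.861). A transcript from the opposite strand, AC055854.1, overlaps EGR3 on chromosome 8 in the GENCODE 29 annotation, and the use of strand in counting is not known from the labels.

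EGR1 lies on chromosome 5 and overlaps no other annotated gene. In MDA-MB-231 cells it stood at 3.56, 3.53 and 3.21 CPM in controls, at 4.62, 4.42 and 4.44 CPM at day 3, and at 3.52, 3.87 and 3.61 CPM at day 15. The 3 day 3 libraries lay above the other 6, and control and day 15 libraries overlapped. The rise at day 3 was 0.39 on the log2 scale (SE 0.103, adjusted p = 0.0471 by limma). That call sat at the threshold and was lost when any 1 of the 6 libraries was left out, with adjusted p between 0.0942 and 0.184, although the log2 fold stayed between 0.34 and 0.42. Day 15 differed from control by 0.10 (SE 0.103, adjusted p = 0.617) and from day 3 by -0.29 (adjusted p = 0.0921). In T47D cells EGR1 was near the limit of detection, with 19, 25 and 23 reads in controls, 23, 26 and 15 at day 3 and 23, 27 and 27 at day 15; the 3 groups overlapped. Its log2 difference there was -0.08 at day 3 and 0.14 at day 15 (SE 0.239 for each; 0.09 at day 15 without T47D day 15 replicate 2), and no change of the size seen in MDA-MB-231 was detectable at this depth.

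FOSL1 encodes FRA1, an AP-1 subunit that ERK both induces and stabilises. In MDA-MB-231 cells it stood at 223, 222 and 225 CPM in controls, 208, 212 and 215 CPM at day 3, and 251, 223 and 260 CPM at day 15. Day 3 libraries were the lowest, and at day 15 replicate 2 lay among the controls while the other 2 lay above them. FOSL1 rose at day 15 against day 3 by 0.21 on the log2 scale (SE 0.0398, adjusted p = 0.00817 by limma). Against control the difference was 0.13 at day 15 (SE 0.0398, adjusted p = 0.0532) and -0.08 at day 3 (adjusted p = 0.43). Without MDA-MB-231 day 15 replicate 2, the day 15 rise against control was 0.20, with an adjusted p of 7.84e-06. Without MDA-MB-231 day 3 replicate 1, the rise against day 3 was 0.20, with an adjusted p of 0.0554.

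ETV5 is an ETS factor of the PEA3 family whose transcript follows ERK activity. In MDA-MB-231 cells it kept a narrow range of 108 to 116 CPM over all 9 libraries, and its log2 differences were between -0.02 and 0.00, with no call. In T47D cells only 10 to 33 reads a library fell on it: 15, 15 and 15 in controls, 21, 10 and 16 at day 3, and 19, 29 and 33 at day 15. Control and day 15 libraries did not overlap, but the log2 difference of 0.66 carried an SE of 0.287 and an adjusted p of 0.174, and without T47D day 15 replicate 2 it was 0.59 (adjusted p = 0.217). ETV5-AS1 and DGKG overlap ETV5 in the annotation.

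The phosphatases come next. DUSP4, on chromosome 8, encodes a nuclear phosphatase of ERK and other MAP kinases. In T47D cells it stood at 67.9, 65.7 and 66.6 CPM in controls, 51.4, 52.5 and 48.4 CPM at day 3, and 58.7, 64.1 and 57.7 CPM at day 15. The 3 groups did not overlap: day 3 was lowest and day 15 lay between it and control. DUSP4 fell at day 3 by 0.40 on the log2 scale (SE 0.0471, adjusted p = 0.00012 by limma) and stood 0.24 higher at day 15 than at day 3 (SE 0.0471, adjusted p = 0.00616). At day 15 it differed from control by -0.15 (SE 0.0471, adjusted p = 0.0548), and without T47D day 15 replicate 2 by -0.20 (adjusted p = 0.000519). Without that library the rise of day 15 over day 3 was 0.20 (adjusted p = 0.000772). In MDA-MB-231 cells it stood at 555, 559 and 553 CPM in controls, 531, 537 and 517 CPM at day 3, and 501, 516 and 505 CPM at day 15. Here too the groups did not overlap, but their order was control, day 3, day 15 from high to low. The fall against control was 0.13 at day 15 (SE 0.0217, adjusted p = 0.000265), and the day 3 difference of -0.07 did not pass (adjusted p = 0.0832).

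DUSP6 encodes the cytoplasmic phosphatase specific for ERK. In T47D cells it stood at 4.27, 4.34 and 4.53 CPM in controls, 3.61, 3.56 and 4.13 CPM at day 3, and 4.65, 4.90 and 4.98 CPM at day 15, from 158 to 235 reads a library. Day 3 libraries lay lowest and day 15 libraries highest, with no overlap among the groups. DUSP6 rose at day 15 against day 3 by 0.36 on the log2 scale (SE 0.0946, adjusted p = 0.0373 by limma). That call was lost without T47D day 3 replicate 1 or 2 or T47D day 15 replicate 1 or 3 (adjusted p 0.0781 to 0.165), and held without T47D day 15 replicate 2, at 0.36 (adjusted p = 0.0268). Against control the differences were -0.22 at day 3 (SE 0.0946, adjusted p = 0.429) and 0.14 at day 15 (adjusted p = 0.387), the same 0.14 without T47D day 15 replicate 2. In MDA-MB-231 cells DUSP6 ranged from 216 to 235 CPM and differed from control by -0.04 at both times (SE 0.0285), without a call. AC024909.2, on the opposite strand, overlaps DUSP6.

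The Sprouty and SPRED inhibitors held no call: 0 of 24 tests passed by limma, and 0 in any alternative run, with voom weights among them, while 5 had an unadjusted p under 0.05. The share of all genes called was 1.77% to 11.2% over these comparisons, so that 0 calls among 24 tests do not set the inhibitors apart from other genes. SPRY2 and SPRY4 restrain signaling from receptors to RAS and RAF, and SPRED1 brings neurofibromin, which inactivates RAS, to the membrane. In T47D cells SPRY4 stood at 1.42, 1.45 and 1.09 CPM in controls, 1.27, 1.22 and 1.40 CPM at day 3, and 1.62, 1.65 and 1.76 CPM at day 15, from 41 to 81 reads a library. Its 3 day 15 libraries were above the other 6, and the log2 difference from control was 0.35 (SE 0.157, adjusted p = 0.184), or 0.37 without T47D day 15 replicate 2 (adjusted p = 0.168). SPRY2 ranged from 3.31 to 4.45 CPM over the T47D libraries, with a log2 difference of 0.15 at day 15 (SE 0.116, adjusted p = 0.476). SPRED1 ranged from 13.7 to 15.7 CPM there, with a difference of 0.08 at day 15 (SE 0.0614, adjusted p = 0.477). The day 15 differences without T47D day 15 replicate 2 were 0.16 for SPRY2 and 0.06 for SPRED1. In MDA-MB-231 cells the widest difference among the 3 inhibitors was that of SPRED1 at day 3: 124, 130 and 128 CPM at day 3, against 118, 117 and 124 CPM in controls. It came to 0.09 on the log2 scale (SE 0.0325, adjusted p = 0.17). SPRY2 stayed between 66.6 and 72.0 CPM and SPRY4 between 92.5 and 101 CPM in that line, with all differences from control within 0.05. SPRY4-AS1, which overlaps SPRY4 on the opposite strand, was listed in MDA-MB-231 at 1.68 to 2.54 CPM.

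PHLDA1, a pleckstrin homology-like domain protein first known from cell death and stress responses, is used among the transcripts that report ERK activity. In T47D cells it stood at 174, 170 and 171 CPM in controls, 148, 143 and 146 CPM at day 3, and 128, 140 and 135 CPM at day 15. The groups did not overlap and followed the order control, day 3, day 15 from high to low. PHLDA1 fell against control by 0.23 on the log2 scale at day 3 (SE 0.0363, adjusted p = 0.00159 by limma) and by 0.36 at day 15 (SE 0.0363, adjusted p = 1.59e-05). Day 15 differed from day 3 by -0.12 (SE 0.0363, adjusted p = 0.0723). Without T47D day 15 replicate 2, the day 15 fall was 0.39 against control (adjusted p = 4.79e-11) and 0.15 against day 3 (adjusted p = 0.000935). In MDA-MB-231 cells it stood at 789, 798 and 797 CPM in controls, 780, 779 and 778 CPM at day 3, and 764, 778 and 736 CPM at day 15. The order was that of T47D and the groups again did not overlap. Day 3 and day 15 were barely apart, at 778.3 CPM in the lowest day 3 library and 777.8 CPM in the highest day 15 library. For 2 groups at a time, 20.5% to 25.1% of all genes of that line did not overlap. The share with all 3 groups apart was not computed. The differences of -0.03 at day 3 (SE 0.0211, adjusted p = 0.611) and -0.07 at day 15 (SE 0.0211, adjusted p = 0.0514) did not pass. Without MDA-MB-231 day 15 replicate 2 the day 15 difference was -0.08, with an adjusted p of 0.0101. AC011611.3 and AC011611.4, on the opposite strand, overlap PHLDA1.

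**Figure D2:**
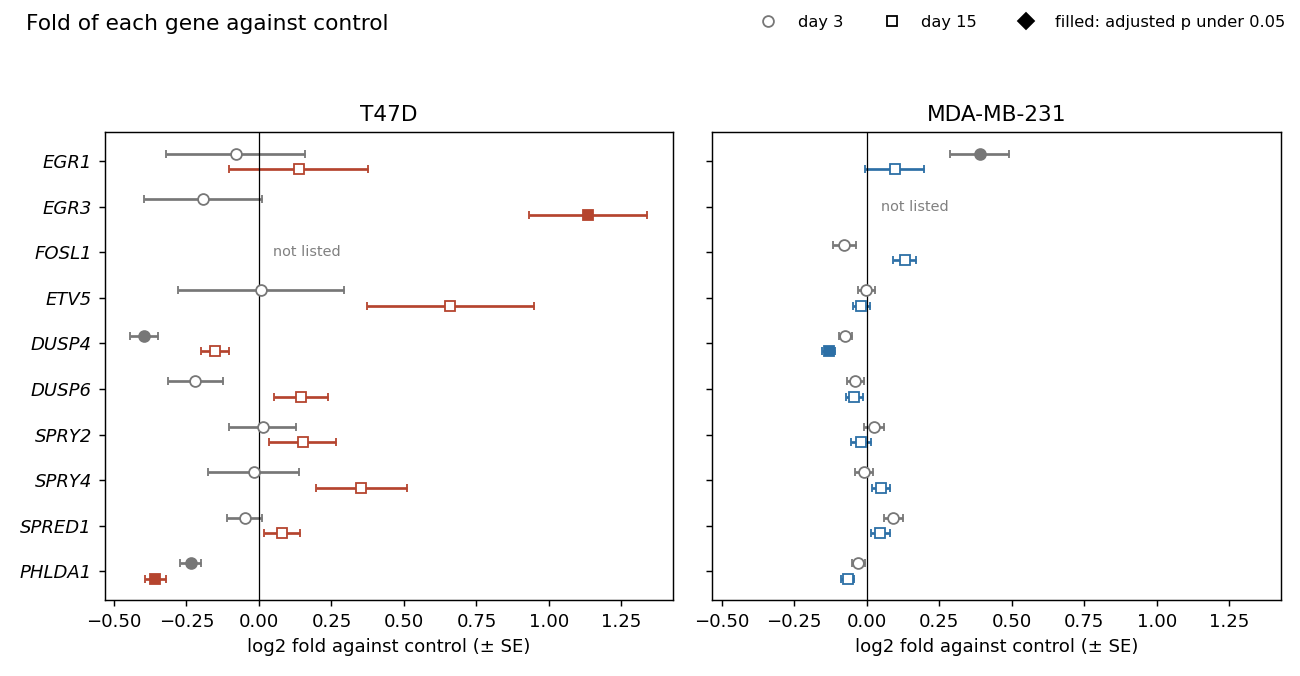
Log2 fold of each gene against control at day 3 (circles) and day 15 (squares) in T47D (left) and MDA-MB-231 (right), on one scale, with SE from limma on 9 libraries of a line; filled symbols have an adjusted p under 0.05. EGR3 at 1.13 in T47D stands farthest from 0, and in MDA-MB-231 EGR1 at day 3 does, at 0.39.

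Counted over the group, the calls were few. In T47D at day 3, 0 genes rose and 2 of 9 fell, where 1.88% of all genes were called, 1.16% higher and 0.718% lower. The median log2 difference of the 9 was -0.08, against 0.00 over all genes. In T47D at day 15 against control, 1 rose (EGR3) and 1 fell (PHLDA1) of 9, where 11.2% of all genes were called, 5% higher and 6.23% lower. The median was 0.14, against 0.00. In T47D at day 15 against day 3, 3 rose (EGR3, DUSP6 and DUSP4) and 0 fell, where 5.58% were called, 2.23% higher and 3.35% lower. The median was 0.24, against 0.00. Without T47D day 15 replicate 2, 3 of 9 were called at day 15 against control: EGR3 rose, and PHLDA1 and DUSP4 fell. Against day 3, 4 of 9 were called: EGR3, DUSP6 and DUSP4 rose and PHLDA1 fell. In that setting 25.1% of all T47D genes were called against control and 17.6% against day 3. Medians and overlaps of groups were not computed in it. In MDA-MB-231 at day 3, 1 of 9 rose (EGR1) and 0 fell, where 1.77% of all genes were called, 0.895% higher and 0.874% lower. The median was -0.01, against 0.00. In MDA-MB-231 at day 15 against control, 0 rose and 1 of 9 fell (DUSP4), where 8.2% were called, 3.42% higher and 4.77% lower. The median was -0.02, against 0.00. In MDA-MB-231 at day 15 against day 3, 1 of 9 rose (FOSL1) and 0 fell, where 5.33% were called, 2.47% higher and 2.86% lower. The median was -0.04, against -0.01. At day 15 against control, 2 of 9 in T47D and 1 of 9 in MDA-MB-231 are counts too small to set apart from those shares. The groups did not overlap for 3 of 9 in T47D at day 3 against control, 6 of 9 at day 15 against control and 6 of 9 at day 15 against day 3, where the shares of all genes were 21.9%, 26.3% and 22.4%. In MDA-MB-231 these were 4, 2 and 5 of 9, where the shares were 20.5%, 24.3% and 25.1%. Comparisons within a line share libraries and are not independent of each other.

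The lines were compared directly on the 8 genes listed in both, by the difference of their responses in a limma fit of all 18 libraries, in which a constant scale of either table cancels. At day 3, 2 of 8 differences were called, both negative, where 2.46% of the 12666 shared genes were called, 1.41% higher and 1.05% lower in T47D than in MDA-MB-231. DUSP4 fell by 0.40 in T47D, while its difference was -0.07 in MDA-MB-231; the T47D minus MDA-MB-231 difference was -0.32 (SE 0.0495, adjusted p = 0.00025). PHLDA1 fell by 0.23 in T47D, while its difference was -0.03 in MDA-MB-231; the T47D minus MDA-MB-231 difference was -0.21 (SE 0.0406, adjusted p = 0.00426). EGR1 differed by -0.47, the widest of the 8, but with an SE of 0.229 and an adjusted p of 0.442. At day 15, 1 of 8 was called, where 9.44% of the shared genes were called, 4.07% higher and 5.37% lower. This was PHLDA1, which fell by 0.36 in T47D and differed by -0.07 in MDA-MB-231, with a T47D minus MDA-MB-231 difference of -0.29 (SE 0.0406, adjusted p = 5e-05). For DUSP4 at day 15 the difference between the lines was -0.02 (SE 0.0495, adjusted p = 0.857). ETV5, which rests on few T47D reads, differed by 0.68, the widest of the 8, with an SE of 0.242 and an adjusted p of 0.0897. Of the 8 differences at day 15, 6 were positive, and the median was 0.11, against -0.01 over the shared genes. At an unadjusted p under 0.05 by limma, 3 were positive and 1 was negative. Without T47D day 15 replicate 2, the day 15 difference was -0.32 for PHLDA1 (adjusted p = 1.66e-07) and -0.07 for DUSP4 (adjusted p = 0.34). For ETV5 it was 0.61 (adjusted p = 0.196).

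The remaining genes of the pathway were counted by their place in it. No gene of these lists was called in T47D at day 3, by limma, where 1.88% of all genes were called. Counts of 0 in lists of this size cannot be set apart from that share. At an unadjusted p under 0.05, 1 of 26 ERK-dependent genes outside the group was higher and 4 were lower. Of 6 ligands these were 2 and 0, and of 10 receptors 0 and 2. Of 21 genes of the cascade they were 1 and 1, and of 6 transcription factors that ERK acts on 0 and 0. The share of all genes at that unadjusted threshold was not computed. With voom weights 0 were called in each list as well. In a fit of the 6 libraries compared, 4 ERK-dependent genes, 1 receptor and 2 cascade genes were called lower and 1 ligand higher. That fit called 921 of all 14768 T47D genes, 389 of them higher, against 277 in the fit of 9 libraries.

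Ligands were among the genes that rose in T47D at day 15. Of 6 listed ligands of the EGF and FGF families, 3 rose and 0 fell against control, where 5% of all genes were called higher and 6.23% lower; the median log2 fold was 0.14, against 0.00 over all genes. AREG, which encodes the EGF receptor ligand amphiregulin, stood between 216 and 243 CPM at day 15, against 162 to 174 CPM in controls, and rose by 0.44 on the log2 scale (SE 0.0419, adjusted p = 8.95e-06). EREG, encoding epiregulin, stood between 33.6 and 35.9 CPM at day 15, against 25.3 to 26.9 CPM in controls, and rose by 0.40 (SE 0.0483, adjusted p = 8.82e-05). TGFA rose by 0.23 (adjusted p = 0.00275). In none of these did day 15 and control libraries overlap, which held for 26.3% of all genes. With T47D day 15 replicate 2 left out, the rises were 0.48 (AREG), 0.40 (EREG) and 0.21 (TGFA), and each still passed. In MDA-MB-231 at day 15, 1 of 7 ligands rose and 1 fell, where 3.42% of all genes were called higher and 4.77% lower: AREG fell by 0.21 (SE 0.0412, adjusted p = 0.00154), at 35.7 to 39.0 CPM at day 15, against 41.6 to 43.9 CPM in controls, and TGFA rose by 0.10 (adjusted p = 0.0238). The T47D minus MDA-MB-231 difference at day 15 was 0.65 for AREG (SE 0.0579, adjusted p = 9.33e-08) and 0.42 for EREG (adjusted p = 0.000732), or 0.70 and 0.43 without T47D day 15 replicate 2.

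Of 10 receptors listed in T47D, 0 rose and 4 fell at day 15 against control, where 6.23% of all genes were called lower; the median log2 fold was -0.09, against 0.00 over all genes. FGFR2, a receptor of fibroblast growth factors, stood between 97.4 and 98.7 CPM at day 15, against 119 to 122 CPM in controls, and fell by 0.31 (SE 0.031, adjusted p = 1.52e-05). EGFR fell by 0.19 (SE 0.0431, adjusted p = 0.00985) and IGF1R by 0.17 (adjusted p = 0.00335). MET fell by 1.41 (SE 0.237, adjusted p = 0.00137), from few reads: 11 to 19 a library at day 15, against 32 to 49 in controls. When T47D day 15 replicate 2 was left out, the falls were 0.31 (FGFR2), 0.18 (EGFR), 0.18 (IGF1R) and 1.60 (MET), and each still passed. In MDA-MB-231, 1 of 8 receptors rose at day 15 and 0 fell, where 3.42% of all genes were called higher: EGFR stood between 537 and 562 CPM, against 504 to 519 CPM in controls, and rose by 0.10 (SE 0.0222, adjusted p = 0.007). The T47D minus MDA-MB-231 difference for EGFR was -0.29 at day 15 (SE 0.0425, adjusted p = 8.4e-05), or -0.28 without T47D day 15 replicate 2.

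Genes of the cascade between receptor and kinase moved in both directions. In T47D at day 15, 2 of 21 rose and 3 fell, where 5% of all genes were called higher and 6.23% lower: MAP2K1, which encodes the kinase MEK1, fell by 0.24 (adjusted p = 0.00226), PTPN11 by 0.19 (adjusted p = 0.00372), and FRS2 and SHC1, adaptors of receptors, rose by 0.14 (adjusted p = 0.0312 and 0.0264). Leaving out T47D day 15 replicate 2 gave log2 folds of -0.29 (MAP2K1), -0.15 (PTPN11), 0.16 (FRS2) and 0.10 (SHC1), and each still passed. In MDA-MB-231 at day 15, 2 of 22 rose and 3 fell, where 3.42% of all genes were called higher and 4.77% lower, with RASA1, a GTPase-activating protein of RAS, higher by 0.19 (adjusted p = 5.39e-05) and RPS6KA1, a kinase that ERK activates, lower by 0.19 (adjusted p = 0.0112). Of the transcription factors that ERK acts on, 1 of 6 rose in T47D at day 15 and 0 fell. This was ELK3, an ETS factor that pairs with serum response factor, at 11.3 to 12.4 CPM at day 15, against 7.41 to 8.07 CPM in controls, a rise of 0.59 (SE 0.0753, adjusted p = 0.000141) and of 0.60 without T47D day 15 replicate 2. In MDA-MB-231 SRF fell by 0.12 at day 15 (adjusted p = 0.0181), the only one of 7 called there.

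Among ERK-dependent genes outside the group, 3 of 26 rose and 7 fell in T47D at day 15, where 5% of all genes were called higher and 6.23% lower; the median log2 fold was -0.01, against 0.00 over all genes. PHLDA2, a relative of PHLDA1, rose by 0.62 (SE 0.115, adjusted p = 0.00263), at 3.24 to 3.89 CPM at day 15, against 2.30 to 2.34 CPM in controls. The transcription factor gene KLF6 fell by 0.33 (SE 0.0379, adjusted p = 4.86e-05) and IER3, an early response gene, by 0.32 (SE 0.0363, adjusted p = 4.08e-05). DUSP1, a nuclear MAP kinase phosphatase, fell by 0.35 (adjusted p = 0.0187). The log2 folds without T47D day 15 replicate 2 were 0.56 (PHLDA2), -0.31 (KLF6), -0.31 (IER3) and -0.40 (DUSP1), and each still passed. In MDA-MB-231, 0 of 27 rose and 4 fell at day 3, where 0.895% of all genes were called higher and 0.874% lower. At day 15, 1 rose and 6 fell, where 3.42% were called higher and 4.77% lower; the median was -0.05, against 0.00. DUSP1 fell by 0.26 at day 3 (SE 0.046, adjusted p = 0.00123) and by 0.23 at day 15 (adjusted p = 0.00254). EPHA2, a receptor tyrosine kinase gene induced by ERK, fell by 0.15 at day 3 (SE 0.0251, adjusted p = 0.000479) and by 0.22 at day 15 (adjusted p = 8.07e-07), and ETV1, of the same ETS family as ETV5, rose by 0.21 at day 15 (adjusted p = 1.81e-05). IER3 fell by 0.18 at day 3 (adjusted p = 5.22e-05). Without T47D day 15 replicate 2, the T47D day 15 counts were 4 rose and 8 fell among these ERK-dependent genes, 3 and 1 among ligands, 2 and 5 among receptors, 2 and 6 in the cascade and 1 and 0 among the transcription factors. In that setting 11.3% of all genes were called higher and 13.7% lower, so the larger counts came with a larger share of all genes.

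**Figure D3:**
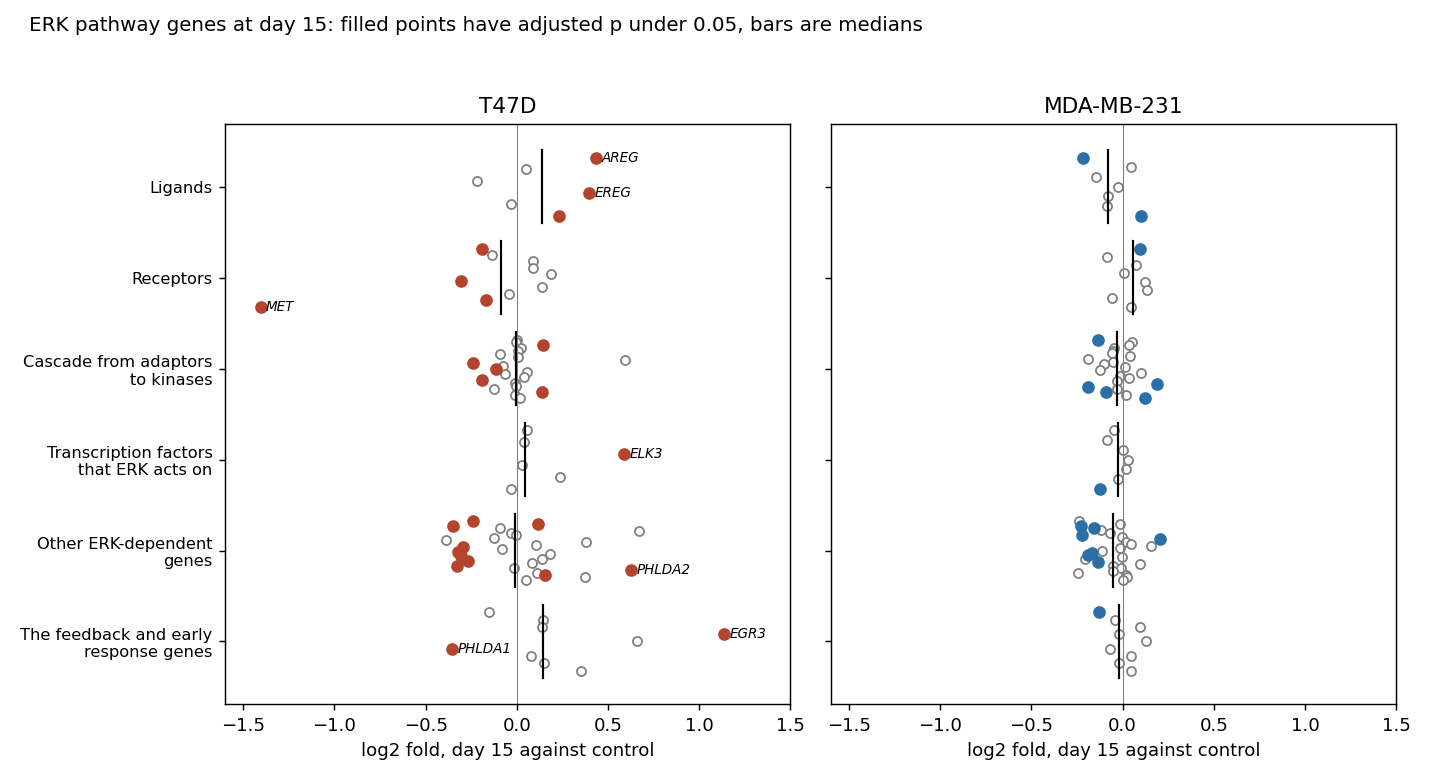
Log2 fold at day 15 against control of each listed gene, by its place in the pathway, in T47D (left) and MDA-MB-231 (right); filled points have an adjusted p under 0.05 and vertical bars are list medians. In T47D, AREG and EREG lie right of 0 at 0.44 and 0.40 and MET lies left of it at -1.41, while points of MDA-MB-231 stay within 0.25 of 0.

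Markers of RNA quality and of cell type moved as well. The 8 histone genes used as a sign of RNA quality summed to between 523 and 548 CPM in T47D controls. Their sums were between 612 and 626 at day 3 and between 570 and 618 at day 15. At each time 3 of 8 rose, where 1.16% of all genes were called higher at day 3 and 5% at day 15. In MDA-MB-231 the histone genes summed to between 406 and 408 CPM in controls. Their sums were between 393 and 408 at day 3 and between 410 and 430 at day 15. By limma 0 of 8 were called at either time, where 1.77% of all genes were called at day 3 and 8.2% at day 15. At an unadjusted p under 0.05 there were 0 at day 3 and 4 at day 15. Of the 8 luminal markers in T47D, 0 rose and 1 fell at day 3, where 1.16% of all genes were called higher and 0.718% lower. At day 15, 1 rose and 3 fell, where 5% were called higher and 6.23% lower. PGR fell by 0.13 at day 3 (adjusted p = 0.035) and by 0.18 at day 15 (adjusted p = 0.00101), ESR1 fell by 0.16 (adjusted p = 0.0023) and KRT18 by 0.12 at day 15 (adjusted p = 0.0279), and GATA3 rose by 0.18 at day 15 (adjusted p = 0.000869). Together the luminal markers summed to between 8365 and 8609 CPM in T47D controls, between 8597 and 8763 at day 3 and between 8020 and 8491 at day 15. CD44, the mesenchymal marker listed in T47D, stood between 6.70 and 8.17 CPM at day 15, against 10.2 to 11.9 CPM in controls, and fell by 0.54 (adjusted p = 0.00142). These day 15 calls held without T47D day 15 replicate 2, with log2 folds of -0.17 (PGR), -0.16 (ESR1), -0.15 (KRT18), 0.20 (GATA3) and -0.45 (CD44).

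In MDA-MB-231, 2 of 5 listed luminal markers fell at each time, where 0.874% of all genes were called lower at day 3 and 4.77% at day 15. KRT8 fell by 0.13 at day 3 (adjusted p = 0.00629) and by 0.22 at day 15 (adjusted p = 1.69e-06), and KRT18 by 0.13 (adjusted p = 0.00457) and 0.17 (adjusted p = 0.000113). The 5 summed to between 907 and 967 CPM in controls, between 874 and 884 at day 3 and between 816 and 847 at day 15. Of 6 mesenchymal markers, 0 were called at day 3, where 1.77% of all genes were called. At day 15, 2 rose and 0 fell, where 3.42% of all genes were called higher and 4.77% lower. ZEB1 rose by 0.15 (adjusted p = 0.00734) and VIM by 0.11 (adjusted p = 6.98e-05). The 6 mesenchymal markers summed to between 6022 and 6073 CPM in controls. Their sums were between 6027 and 6031 at day 3 and between 6280 and 6324 at day 15. Of 4 listed fibroblast markers PDGFRB fell by 0.52 at day 15 (adjusted p = 0.00213), at 4.61 to 4.93 CPM, against 6.09 to 7.70 CPM in controls. The part of these markers in the changes of the 10 genes was not tested.

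The genes whose pattern over the 6 groups was most like that of a member were found among 10583 genes that are listed in both tables, belong to none of the 10 and have a mean log2 CPM of 1 or more in each line, as the root mean square difference of the log2 group means, centred within each line. Of the 8 members listed in both tables, the 3 with the widest span of these centred means were used; EGR3 is listed in T47D alone and could not enter. For ETV5 the nearest were PHLDA2, at a distance of 0.024, and UBASH3B, at 0.027; all 3 stood higher in T47D at day 15 and nearly level elsewhere, although ETV5 rests on few T47D reads. For DUSP4 the nearest were MROH6 (0.036) and ESAM (0.039), which were lowest in T47D at day 3. For EGR1 the nearest were SLC27A3 (0.031) and INSIG1 (0.035), which were highest in MDA-MB-231 at day 3. These distances rest on 6 group means and are a description. Without T47D day 15 replicate 2 the nearest were ELK3 and PHLDA2 for ETV5, PEG10 and ESAM for DUSP4, and INSIG1 and SCD for EGR1, so that 1 of the 2 names given for each stayed.

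**Figure D4:**
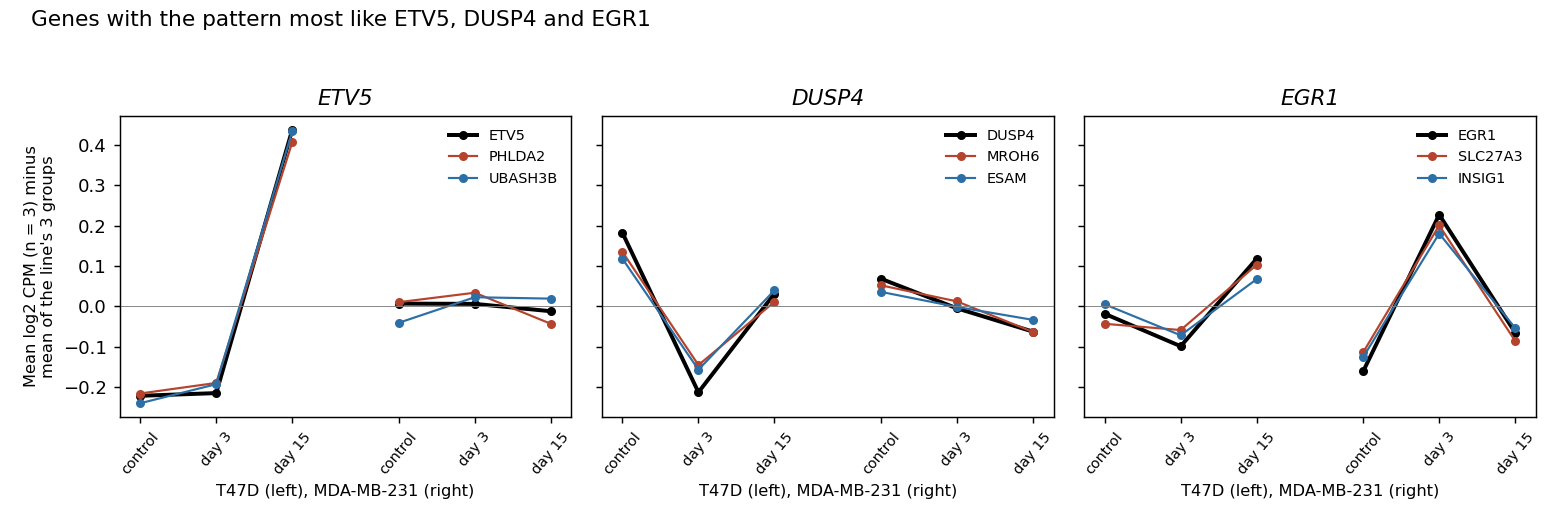
Mean log2 CPM of 3 libraries a group, centred on the mean of the 3 groups of each line, for ETV5, DUSP4 and EGR1 (black) and the 2 genes nearest to each (colours), with T47D left and MDA-MB-231 right in each panel. The black lines turn at T47D day 15 for ETV5, at T47D day 3 for DUSP4 and at MDA-MB-231 day 3 for EGR1, and the coloured lines follow them within 0.1.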

How the data were processed

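RNA of 18 libraries was sequenced, 3 in each of 6 groups. Per the submitters' processing notes, the tools were STAR, featureCounts and limma on GRCh38.p13; their versions, strand use and filters were not stated there. The authors deposited 1 table per line of log2 CPM per gene, as judged from the values. Removing a depth-scaled pseudocount of 3 reads turned each deposited value into a whole read number (within 0.1). CPM printed here is 2 to the power of the deposited value, pseudocount included, so folds of low genes are understated. Each line has its own table, so levels are not compared between lines.

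For each line, limma 3.58.1 (R 4.3.3, statmod 1.5.0) was fitted to the 9 libraries with trend and robust moderation, with Benjamini-Hochberg adjustment over all listed genes and calls at an adjusted p under 0.05. The code was tested on simulated data. Members and lists were chosen with earlier results of these data known: all 10 members are named, and up to 4 called genes per list and comparison, by size of log2 fold. RefSeq promoters and GENCODE 29 gave sequences and overlaps. Alternatives were other moderation, pseudocount, weights, filter, centring, block and libraries.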

Additional observations from a re-analysis of the deposited data

Results flagged for a closer look

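Responses that differed between the lines are given here as T47D minus MDA-MB-231 differences in the log2 fold against control, each from limma on 18 libraries with adjustment over 12666 shared genes. For DUSP4 the day 3 difference was -0.3225 (adjusted p = 0.00025), and for PHLDA1 the difference was -0.2062 at day 3 (adjusted p = 0.00426) and -0.2908 at day 15 (adjusted p = 5e-05). These 3 held in each of the 18 alternative settings run for them.

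Other pathway genes differed as well. At day 3 the difference was 0.3899 for DUSP1 (adjusted p = 0.0148), 0.2627 for IER3 (adjusted p = 0.000415), -0.2342 for JUND (adjusted p = 0.015) and -0.182 for EGFR (adjusted p = 0.0196). IER3 was called in all 18 alternatives run, DUSP1 in 16, JUND in 15 and EGFR in 7 of 18. At day 15 it was 0.6775 for PHLDA2, 0.3731 for IER5, -0.3057 for JUN and -0.2819 for FOSL2 among the ERK-dependent genes. For the ligands it was 0.6512 (AREG) and 0.4234 (EREG), and for the receptors -1.449 (MET) and -0.2897 (EGFR). In the cascade it was 0.7795 for KSR1, -0.2241 for PTPN11, 0.2238 for SHC1 and -0.1931 for RASA1. For the transcription factor ELK3 it was 0.5852. Each of these day 15 differences was called in every alternative that kept the gene, except KSR1 (16 of 17), and each was also called without T47D day 15 replicate 2. The KSR1 value rests on 31 to 71 T47D reads a library in the groups compared, and that of MET on 11 to 49.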

How the results depend on the processing

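Of 13 calls of the 10 genes, 9 held in every alternative that kept the gene. EGR1 in MDA-MB-231 at day 3, DUSP4 there at day 15, FOSL1 there at day 15 against day 3 and DUSP6 in T47D at day 15 against day 3 did not: DUSP4 had an adjusted p of 0.0554 without trend or robust moderation, FOSL1 had 0.151 there, and EGR1 had 0.0534 with libraries centred on their median. Among 69 calls of pathway genes, 39 held throughout and none changed sign. Of those named in the report, the ones lost in at least 1 alternative, with their highest adjusted p, were DUSP1 (0.0714), EGFR (0.0564), FRS2 (0.136) and SHC1 (0.115) in T47D at day 15, TGFA (0.127), EGFR (0.122), RPS6KA1 (0.145) and SRF (0.131) in MDA-MB-231 at day 15, and EPHA2 there at day 3 (0.13). Of the differences between lines these were DUSP1 (0.0606), JUND (0.0625) and EGFR (0.0677) at day 3 and KSR1 (0.0508) at day 15.

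In MDA-MB-231, called genes at day 3 numbered 253, against 63 without trend or robust moderation, 637 with the replicate block and 476 in the 6 libraries compared; members numbered 1, against 0 centred, 2 with the replicate block and 2 in the 6 libraries. At day 15 genes numbered 1173, against 232 without moderation, 2273 with the replicate block and 776 in the 6 libraries; members numbered 1, against 0 without moderation, 2 with voom, 2 with the filter, 2 centred and 3 with the replicate block. At day 15 against day 3 genes numbered 763, against 32 without moderation and 1788 with the replicate block; members numbered 1, against 0 and 2. In T47D, genes at day 3 numbered 277, against 921 in the 6 libraries. At day 15 genes numbered 1659, against 996 in the 6 libraries, and members 2, against 1 with the filter, which drops EGR3. At day 15 against day 3 genes numbered 824, against 549 without moderation, 511 with the replicate block and 463 in the 6 libraries. The labels do not say that a replicate number marks a shared batch, and not every same-numbered pair correlated above 0.1, so the libraries were not taken as paired. Same-numbered deviations correlated between -0.41 and 0.0726 in T47D (3 of 9 pairs positive) and between -0.0309 and 0.28 in MDA-MB-231 (8 of 9 positive, 4 above 0.1). The closest library in another group had the same number in 3 of 18 choices in T47D and 11 of 18 in MDA-MB-231. With the replicate block, MDA-MB-231 calls were added for DUSP4 at day 3 (adjusted p = 0.0119) and at day 15 against day 3 (0.0309), and for FOSL1 (0.0014) and PHLDA1 (0.00739) at day 15; in T47D, DUSP6 at day 15 against day 3 was lost (0.0634).

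With 1 library left out, called genes ranged in T47D from 182 to 214 (day 3), 930 to 3705 (day 15; 3705 without day 15 replicate 2) and 403 to 2604 (day 15 against day 3; 2604 likewise), and in MDA-MB-231 from 119 to 259, 457 to 1897 and 124 to 1664. For the difference between lines they ranged from 232 to 314 at day 3 and 860 to 1899 at day 15. Members ranged in T47D from 2 to 2, 2 to 3 and 2 to 4, in MDA-MB-231 from 0 to 0, 1 to 3 and 0 to 2, and for the difference from 2 to 3 and 1 to 2.

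Centring moved the higher share of calls to 56.7%, against 41.8%, in MDA-MB-231 at day 15, to 67.2%, against 46.4%, at day 15 against day 3, and to 32.9%, against 43.1%, for the difference at day 15; library medians spread by 0.0407 and 0.059.

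No call that was followed through the alternatives changed sign. Uncalled values near 0 did. With centring, ETV5 had 0.001843 and DUSP6 0.01697 in MDA-MB-231 at day 15 against day 3, ETV5 -0.01005 and SPRY2 -0.003782 in T47D at day 3, and ETV5 -0.006394 for the day 3 difference; a pseudocount of 0.5 reads gave ETV5 -0.000512 in T47D at day 3. With 1 library left out, MDA-MB-231 values at day 3 ranged from -0.0158 to 0.006954 (ETV5), -0.002043 to 0.05308 (SPRY2) and -0.02577 to 0.004948 (SPRY4), at day 15 from -0.04721 to 0.003714 (ETV5) and -0.04599 to 0.009142 (SPRY2), and at day 15 against day 3 from -0.0465 to 0.004427 (ETV5) and -0.02492 to 0.03312 (DUSP6). T47D values at day 3 ranged from -0.2157 to 0.1153 (EGR1), -0.1958 to 0.2516 (ETV5), -0.08141 to 0.09233 (SPRY2) and -0.1489 to 0.05532 (SPRY4). Differences ranged at day 3 from -0.195 to 0.2523 (ETV5), -0.106 to 0.0677 (SPRY2) and -0.1388 to 0.06542 (SPRY4), and at day 15 from -0.05345 to 0.1366 (EGR1), -0.06633 to 0.009285 (DUSP4) and -0.01098 to 0.06867 (SPRED1). In T47D, EGR1, ETV5 and SPRY4 rest on 10 to 81 reads a library, and EGR3, which was called, on 26 to 102.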
